A study of Mus musculus with 32 samples.

Results

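Haemoglobin and red blood cell transcripts were followed in 2 tissues, the epididymal white fat (eWAT) and the liver, of corticosterone-treated mice fed a normal-protein or a high-protein diet. The 7 genes were taken by name from the table of raw counts after its Ensembl identifiers had been matched to mouse symbols, and they were 7 of 47643 gene identifiers in that table. They were the alpha-globin genes Hba-a1 (ENSMUSG00000069919) and Hba-a2 (ENSMUSG00000069917), the beta-globin genes Hbb-bs (ENSMUSG00000052305) and Hbb-bt (ENSMUSG00000073940), Alas2 (ENSMUSG00000025270), Bpgm (ENSMUSG00000038871) and Slc4a1 (ENSMUSG00000006574). All 7 were selected on their measured counts and fold changes in these libraries, which were known to differ between the groups, so their levels and fold changes are given as a description, without p-values. The animals were male C57BL/6 mice, which the study's methods give as C57BL/6J, that entered the experiment at 10 weeks of age and stayed on their diet and drinking water for 7 days. Cort mice received corticosterone in the drinking water and Veh mice received the ethanol vehicle. The normal-protein diet (NPD) drew 20% of its energy from protein, and the high-protein diet (HPD) drew 60%, in both cases as whey protein, in exchange for corn starch. Each of the 4 combinations of diet and drinking water had 4 libraries per tissue, prepared from flash-frozen tissue by a 3′ end method, in which the number of counts does not grow with transcript length. The labels do not say whether the eWAT and the liver came from the same mice. The study needed several cohorts of mice, and the cohort of each library is not given.

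Mature red blood cells of mammals lose their nucleus, and the young cells that have just entered the circulation, the reticulocytes, still carry messenger RNA, most of it for haemoglobin. Each haemoglobin molecule pairs alpha chains with beta chains around haem, whose first and rate-limiting step in red cell precursors is run by the enzyme that Alas2 encodes. Bpgm makes 2,3-bisphosphoglycerate, which lowers the affinity of haemoglobin for oxygen, and Slc4a1 encodes band 3, the chloride and bicarbonate exchanger that anchors the membrane skeleton of the red cell. The blood vessels of adipose tissue and liver hold both kinds of cell. In a bulk library, fewer red cells and less RNA per red cell cannot be told apart.

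The genes sit at 5 places in the mouse genome (GRCm38, GENCODE annotation). The alpha-globin pair lies on the plus strand, Hba-a1 at chr11:32283511-32284465 and Hba-a2 at chr11:32296489-32297298. The beta-globin pair lies on the minus strand, Hbb-bs at chr7:103826534-103828096 and Hbb-bt at chr7:103812524-103813996. Alas2 is at chrX:150547375-150570638 and Bpgm at chr6:34476207-34505613, both on the plus strand, and Slc4a1 is at chr11:102348824-102366203 on the minus strand. Promoter sequences were available for 6 of the 7 genes, from RefSeq on GRCm38.p6. The promoters of 4 genes are shown because these genes moved together in eWAT while Alas2 went the other way in liver. The 250 bases before the start that RefSeq annotates, which for these 4 genes lies inside the GENCODE bounds given above, are printed on each gene's own strand, for Hba-a2 chr11:32296242-32296491 (plus), Hbb-bs chr7:103827929-103828178 (minus), Hbb-bt chr7:103813924-103814173 (minus) and Alas2 chrX:150547167-150547416 (plus). Capitals mark 4 searched motifs, searched by their letters. The first is TATAA, the core of the TATA box, searched on the gene's own strand. The second is CCAAT, the letters of the box of that name. The third is GATAA, the core of the sites of GATA factors. The fourth is CACCC, the letters of the box bound by erythroid Kruppel-like factors. The last 3 were searched on both strands, so capitals that do not spell these letters spell them on the other strand.
Hba-a2: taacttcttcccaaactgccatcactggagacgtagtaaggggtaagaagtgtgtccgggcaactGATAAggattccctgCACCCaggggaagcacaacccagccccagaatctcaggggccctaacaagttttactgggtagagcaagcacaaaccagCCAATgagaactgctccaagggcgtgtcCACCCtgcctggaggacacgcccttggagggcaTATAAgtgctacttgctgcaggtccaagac
Hbb-bs: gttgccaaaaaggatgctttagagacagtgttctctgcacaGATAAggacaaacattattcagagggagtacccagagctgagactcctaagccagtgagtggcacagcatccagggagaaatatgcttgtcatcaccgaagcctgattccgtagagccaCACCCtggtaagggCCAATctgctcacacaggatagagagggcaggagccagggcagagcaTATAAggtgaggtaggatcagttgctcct
Hbb-bt: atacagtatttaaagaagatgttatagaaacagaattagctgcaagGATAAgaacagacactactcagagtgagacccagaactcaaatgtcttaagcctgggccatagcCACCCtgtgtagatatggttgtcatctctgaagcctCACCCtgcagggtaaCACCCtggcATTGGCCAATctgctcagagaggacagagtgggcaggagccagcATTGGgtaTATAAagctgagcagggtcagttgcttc
Alas2: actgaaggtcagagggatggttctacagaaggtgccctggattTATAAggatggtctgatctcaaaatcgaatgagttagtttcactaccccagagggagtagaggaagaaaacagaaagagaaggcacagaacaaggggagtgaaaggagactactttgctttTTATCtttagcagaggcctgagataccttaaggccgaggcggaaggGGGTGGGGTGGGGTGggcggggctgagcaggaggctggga

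The 4 haemoglobin promoters each held all 4 motifs, which 0.664% of 32851 mouse promoters of the same length did. Singly, TATAA was found in 16% of those promoters, CCAAT in 33.8%, GATAA in 22.6% and CACCC in 52.0%. The first base of TATAA was 30 bases before the start in Hba-a2, 29 in Hbb-bs and 28 in Hbb-bt, and it was 207 bases before the start in Alas2. In Hbb-bt, a CCAAT on the other strand and one on the gene's strand lie side by side in the printed run. Alas2 held TATAA in this window. On its other strand it held GATAA once. It also held CACCC there in 3 abutting copies, and it held no CCAAT. Bpgm held only CCAAT among the 4, in 3 copies. The promoters of Hba-a1 and Hba-a2 shared an unbroken run of 247 bases, so the Hba-a1 promoter is not shown, whereas those of Hbb-bs and Hbb-bt had 69.3% identity. A match of letters is a description of the sequence and not evidence that a factor binds there.

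Near-identical copies limit what can be said of single globin genes. The coding sequences of Hba-a1 and Hba-a2 had 426 bases each and differed at 1 of them, and the 77-base 3′ untranslated region of Hba-a1 was contained whole in that of Hba-a2. The coding sequences of Hbb-bs and Hbb-bt had 441 bases and differed at 1, but their 3′ untranslated regions shared only 70.8% of aligned bases. The way reads that fit 2 genes were counted is not given in the sources used here, so the split between Hba-a1 and Hba-a2 is uncertain, and their sum is the safer value. Alas2 overlaps Apex2 on the opposite strand, and whether counting used strand is not given. The mean level of Apex2 was 6.09 CPM (counts scaled to a library total of 1e+06) in eWAT and 3.02 CPM in liver.

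Total counts ran from 9794683 to 18057936 per library in eWAT and from 8933307 to 17447524 in the liver libraries used, and CPM are counts scaled by this total. The liver library of the Veh HPD group with replicate number 4 was left out of the comparisons, and its values are given separately. The summed adipocyte markers were 12084 to 33876 CPM in eWAT and 3.84 to 18.6 CPM in liver, and the summed hepatocyte markers were 71569 to 181417 CPM in liver and 947 to 3706 CPM in eWAT. In eWAT the hepatocyte sum rested almost wholly on Cyp2e1, with a mean of 2186 CPM. One eWAT library, Cort HPD replicate 4, held 23267 CPM of epididymis markers, where the other eWAT libraries held at most 14.5 CPM. One liver library, Cort NPD replicate 3, held 560 CPM of skeletal muscle markers, where the other liver libraries held at most 51.7 CPM. No pair of libraries in a group held identical counts. Nothing in the labels says how replicates were kept apart, so the p-values below measure the spread between these samples.

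In eWAT, haemoglobin transcripts were higher when corticosterone was combined with the HPD than in any other group. The sum of Hba-a1, Hba-a2, Hbb-bs and Hbb-bt was 3832, 6670, 7319 and 4017 CPM in the 4 Veh NPD libraries and 5969, 9785, 5368 and 8812 CPM in the Veh HPD libraries. It was 3479, 6383, 3746 and 4199 CPM in the Cort NPD libraries and 12467, 24961, 15639 and 19650 CPM in the Cort HPD libraries. Every Cort HPD library was therefore above every other eWAT library, and the other 3 groups overlapped. The group means were 5460 ± 1794 (SD, n = 4) in Veh NPD, 7484 ± 2147 in Veh HPD, 4452 ± 1321 in Cort NPD and 18179 ± 5393 CPM in Cort HPD. The Cort HPD mean was 4.08 times the Cort NPD mean and 2.43 times the Veh HPD mean. Without the library that held epididymis markers these ratios were 3.97 and 2.36. Cort against Veh on the NPD gave a ratio of 0.815, and the HPD against the NPD in Veh mice gave 1.37, both within the spread of the libraries. In the Cort HPD group haemoglobin made up 1.25% to 2.50% of all counts.

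**Figure D1:**
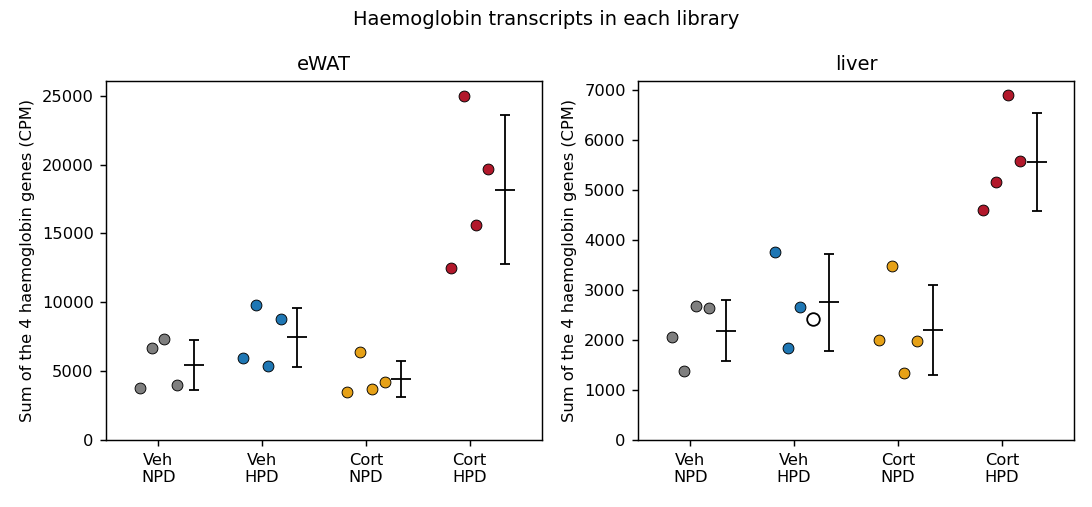
Sum of the 4 haemoglobin genes in CPM (vertical axis from 0) by group in eWAT (left) and liver (right). Filled points are libraries, the line and bar beside them are the mean ± SD, and the open circle is the liver library left out; in both tissues all Cort HPD points lie above all other points, at 12467 to 24961 CPM in eWAT and 4610 to 6903 CPM in liver.

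Among the alpha-globin genes, Hba-a1 was at 561, 1082, 1061 and 640 CPM in Veh NPD, 924, 1429, 830 and 1202 in Veh HPD, 534, 981, 584 and 685 in Cort NPD, and 1963, 3815, 2532 and 3155 CPM in Cort HPD. The lowest Cort HPD library was above the highest of the other 12. Fitted with edgeR, the log2 fold change of the HPD against the NPD in Cort mice was 2.0 ± 0.28 (SE) for Hba-a1 and 2.03 ± 0.28 for Hba-a2. For Cort against Veh on the HPD it was 1.41 ± 0.28 and 1.37 ± 0.28. Hba-a2 ran from 304 to 993 CPM in the 12 libraries of the other groups and from 1277 to 2492 CPM in Cort HPD.

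The most abundant of the 7 was Hbb-bs, an adult beta-globin gene. Its level was 2473, 4222, 4717 and 2512 CPM in Veh NPD, 3820, 6257, 3338 and 5766 in Veh HPD, 2237, 4063, 2322 and 2581 in Cort NPD, and 7654, 15934, 9492 and 11925 CPM in Cort HPD. Again the Cort HPD libraries stood above all others, and the other groups overlapped. The fitted log2 fold changes of Hbb-bs were 1.97 ± 0.32 for the diet in Cort mice and 1.25 ± 0.31 for Cort on the HPD. Those of Hbb-bt were 2.06 ± 0.30 and 1.37 ± 0.29, with levels of 1572 to 2720 CPM in Cort HPD and 401 to 1106 CPM elsewhere. The 4 genes of both chains thus had log2 diet differences in Cort mice that lay closer to each other than the SE of each.

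The haem synthesis gene Alas2 had the same order of groups in eWAT. It was at 18.3, 29.5, 31.2 and 16.2 CPM in Veh NPD, 25.5, 47.9, 20.8 and 32.5 in Veh HPD, 15.9, 19.3, 15 and 18.1 in Cort NPD, and 58.1, 109, 63.0 and 79.1 CPM in Cort HPD. Its lowest Cort HPD library was above its highest Veh HPD library. The log2 fold change was 2.13 ± 0.27 for the diet in Cort mice and 1.31 ± 0.26 for Cort on the HPD, close to those of the globin genes. Bpgm, the 2,3-bisphosphoglycerate enzyme, was at 30.1, 49.3, 38.9 and 38.8 CPM in Cort HPD and at 12.4 to 21.0 CPM in the other 12 libraries. Its log2 fold changes were smaller, 1.31 ± 0.20 for the diet in Cort mice and 1.13 ± 0.19 for Cort on the HPD.

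Slc4a1, the membrane exchanger, was near the limit of detection outside the Cort HPD group. Its counts were 1, 11, 3 and 5 in Veh NPD, 4, 12, 7 and 12 in Veh HPD, 3, 0, 1 and 5 in Cort NPD, and 34, 49, 50 and 84 in Cort HPD. The Cort HPD counts were the only ones above 12. Because the fitted fold change of such low counts depends on the prior count of the tool, the counts were summed by group and scaled by depth. The ratio of Cort HPD to Cort NPD was 24.9 (exact 95% interval 12.9 to 55.2, 217 against 9 counts), and that of Cort HPD to Veh HPD was 7.64 (5.33 to 11.3, 217 against 35 counts). These intervals cover counting error only. Slc4a1 passed the filter on low counts only through the Cort HPD libraries, so its presence among the tested genes carried this difference with it.

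**Figure D2:**
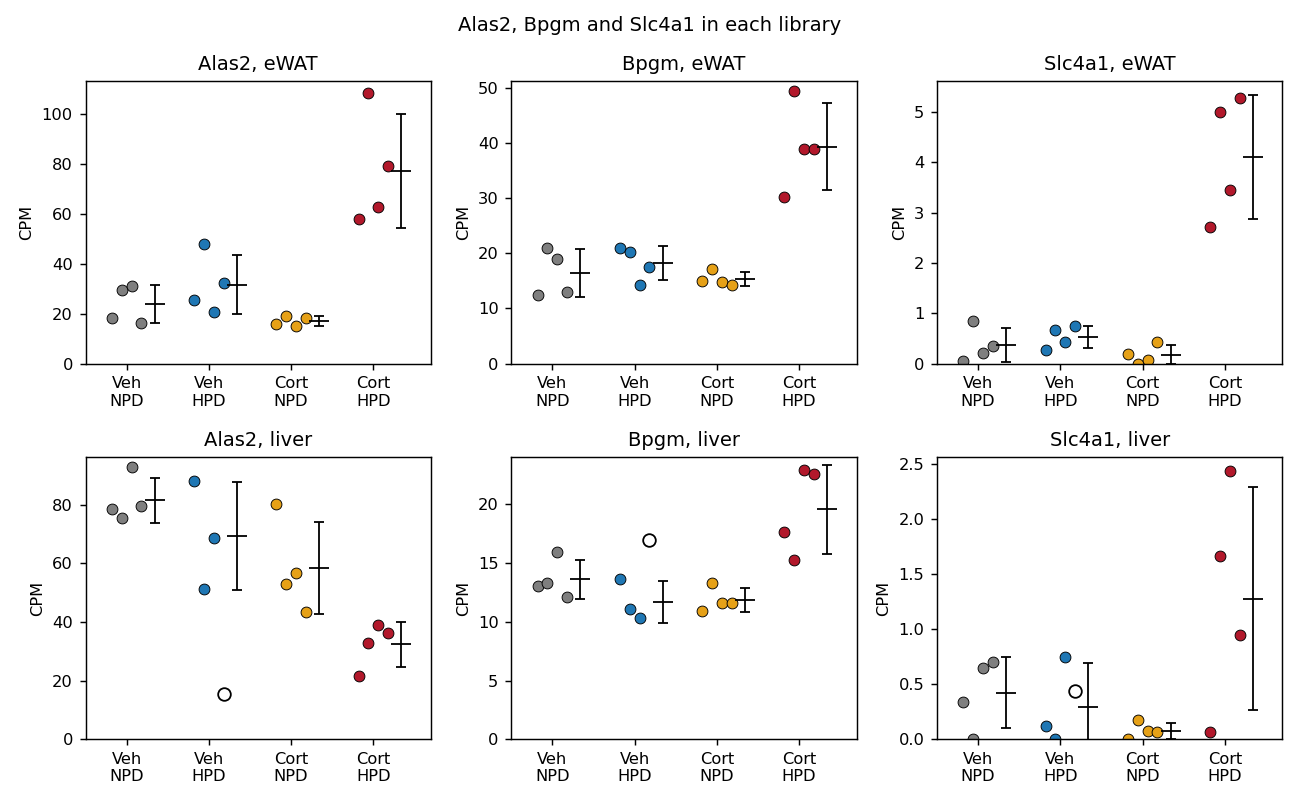
Level of Alas2, Bpgm and Slc4a1 in CPM (vertical axes from 0, each with its own range) by group in eWAT (top) and liver (bottom). Points are libraries, the line and bar are the mean ± SD, with bars ending at the axis where they would pass 0, and the open circle is the liver library left out; all 3 genes are highest in Cort HPD in eWAT, whereas liver Alas2 is lowest there.

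In the test across 15187 genes of eWAT, 7 of the 7 genes were higher on the HPD than on the NPD in Cort mice, where 0.204% of all genes were called higher. For Cort against Veh on the HPD, 6 of the 7 were called higher, against 3.18% of all genes, and Slc4a1 was not called. The genes had been chosen for these differences, and nothing is read from the counts. The share of higher genes among all those called for the diet in Cort mice was 40.8%, and it was 52.1% when libraries were scaled by their totals alone. For Cort against Veh on the NPD and for the HPD against the NPD in Veh mice, 0 of 7 were called by edgeR, against 7.95% and 0.0593% of all genes. None of the 7 had an unadjusted p under 0.05 in either, where 3084 and 1216 of all genes did. The interaction of diet and Cort called 0 of 7 by edgeR, against 0.0132% of all genes. All 7 had an unadjusted p under 0.05, as had 787 of the 15187 genes. DESeq2 called 3 of the 7, and 14 of all genes. The 7 were chosen with these differences known, so nothing is read from these counts either. The median log2 fold change of the 7 was 2.03 for the diet in Cort mice and 1.37 for Cort on the HPD, beside 0.02 and -0.03 over all genes. Leaving out single libraries took away the calls of Hbb-bs and Slc4a1 at most, so that 5 to 7 of the genes were called in each of the first 2 comparisons. The call of Hbb-bs for the diet in Cort mice was lost without Cort NPD replicates 1, 3 or 4, and for Cort on the HPD without Veh HPD replicates 1 or 3 or Cort HPD replicates 2 or 4.

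In liver, too, haemoglobin was highest in the Cort HPD group, at lower levels than in eWAT. The sum of the 4 genes was 2072, 1390, 2683 and 2639 CPM in Veh NPD and 3761, 1847 and 2663 CPM in the 3 Veh HPD libraries used. It was 2010, 3480, 1350 and 1992 CPM in Cort NPD and 4610, 5162, 6903 and 5578 CPM in Cort HPD. All Cort HPD libraries were above all others, as in eWAT, and the library left out, at 2436 CPM, lay among the other Veh libraries. The Cort HPD mean was 2.52 times that of Cort NPD and 2.02 times that of Veh HPD, while Cort against Veh on the NPD gave 1.01 and the diet in Veh mice gave 1.26. The eWAT mean exceeded the liver mean by 2.49 times in Veh NPD, 2.71 in Veh HPD, 2.02 in Cort NPD and 3.27 in Cort HPD.

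The alpha and the beta chains parted from each other somewhat in liver. Hbb-bs was at 1418, 876, 1645 and 1757 CPM in Veh NPD, 2199, 1137 and 1749 in Veh HPD, 1241, 2007, 913 and 1392 in Cort NPD, and 3379, 3070, 4536 and 3235 CPM in Cort HPD, with no overlap. Hba-a1 was at 257, 227, 441 and 374 CPM in Veh NPD, 687, 314 and 375 in Veh HPD, 336, 656, 165 and 225 in Cort NPD, and 432, 893, 850 and 1021 CPM in Cort HPD. Here the lowest Cort HPD library, replicate 1, overlapped both the Veh HPD and the Cort NPD libraries, whereas its Hbb-bs level did not. The log2 fold change of the diet in Cort mice was 1.54 ± 0.27 for Hbb-bs and 1.65 ± 0.27 for Hbb-bt, and 1.33 ± 0.42 for Hba-a1 and 1.30 ± 0.46 for Hba-a2. For Cort on the HPD it was 1.34 ± 0.29 and 1.42 ± 0.30 for the beta genes and 1.02 ± 0.46 and 1.02 ± 0.50 for the alpha genes. The larger errors of the alpha genes were as large as the gap between the chains. Hbb-bt overlapped in no comparison of Cort HPD either, with 520 to 994 CPM there and 158 to 422 CPM in the other 11 libraries.

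Alas2 went the other way in liver. It was at 78.4, 75.6, 92.8 and 79.4 CPM in Veh NPD, 88.0, 51.3 and 68.8 in Veh HPD, 80.2, 52.9, 56.9 and 43.4 in Cort NPD, and 21.5, 32.8, 38.9 and 36.3 CPM in Cort HPD. The highest Cort HPD library was below the lowest of the other 11 libraries used. The log2 fold change was -0.70 ± 0.19 for the diet in Cort mice and -0.86 ± 0.20 for Cort on the HPD. The Veh HPD library left out had 15.5 CPM of Alas2, below all other liver libraries. With that library in the fit, the difference for Cort on the HPD was -0.52 and Alas2 was no longer called in either comparison. In Veh NPD and Cort NPD, mean Alas2 in eWAT was 0.292 and 0.293 times that in liver, and in Veh HPD 0.457 times. In Cort HPD it was 2.38 times that in liver.

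Bpgm and Slc4a1 were again highest in Cort HPD. Bpgm was at 13.1, 13.3, 16 and 12.2 CPM in Veh NPD, 13.7, 11.1 and 10.3 in Veh HPD, 11, 13.3, 11.6 and 11.6 in Cort NPD, and 17.6, 15.2, 22.9 and 22.6 CPM in Cort HPD. The Cort HPD libraries were above all Veh HPD and Cort NPD libraries, while 1 Veh NPD library and the Veh HPD library left out, at 16.9 CPM, lay above the lowest of them. The log2 fold change of Bpgm was 0.90 ± 0.17 for the diet in Cort mice and 0.99 ± 0.18 for Cort on the HPD. Slc4a1 had 4, 0, 7 and 9 counts in Veh NPD, 2, 0 and 10 in Veh HPD, 0, 2, 1 and 1 in Cort NPD, and 1, 29, 35 and 13 in Cort HPD. One Cort HPD library thus had a single count, and the groups overlapped. The depth-scaled ratio of summed counts was 16.9 (exact 95% interval 6.35 to 63.6, 78 against 4 counts) for Cort HPD to Cort NPD and 4.38 (2.37 to 8.83, 78 against 12 counts) for Cort HPD to Veh HPD. These intervals too cover counting error only. They leave out the spread between libraries, which ran from 1 to 35 counts in Cort HPD.

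**Figure D3:**
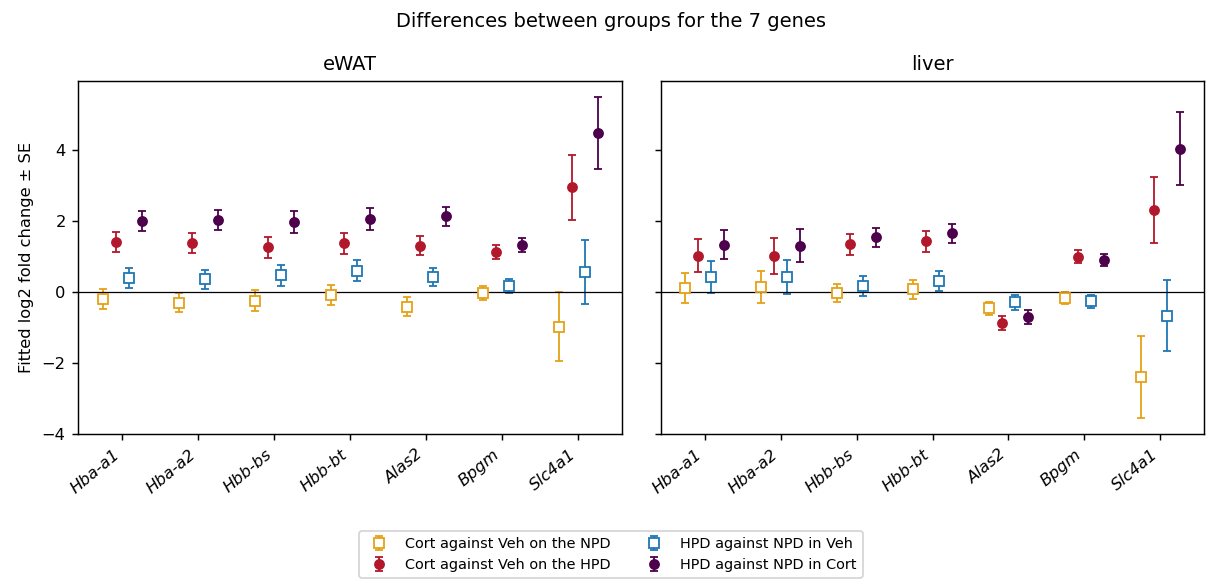
Fitted log2 fold change ± SE of the 7 genes (horizontal axis) in eWAT (left) and liver (right) for 4 comparisons. Open squares are Cort against Veh on the NPD and the HPD against the NPD in Veh mice, filled circles are the comparisons with Cort HPD; in eWAT all filled circles lie above 1, in liver those of Alas2 lie below 0, at -0.86 and -0.70, and the values of Slc4a1 rest on counts near 0.

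In the test across 12391 genes of liver, 5 of the 7 were called for the diet in Cort mice, 4 higher and Alas2 lower, where 3.08% of all genes were called higher and 2.80% lower. Slc4a1 was among the 4 called higher. In liver too it passed the filter on low counts only through Cort HPD libraries, so its presence among the tested genes carried this difference with it. For Cort on the HPD, 4 of the 7 were called, 3 higher and Alas2 lower, against 4.75% of all genes higher and 5.14% lower. Hba-a1 and Hba-a2 were called in neither, and as in eWAT nothing is read from these counts. The direction of the calls over all genes depended on scaling in this tissue. With library totals alone the median of all genes moved to -0.24 for Cort on the HPD and to -0.18 for the diet in Cort mice, and the share of higher genes among those called dropped from 48.0% to 17.8% and from 52.4% to 23.3%. The directions of the 7 did not turn under that scaling. The median of the 7 was 1.02 for Cort on the HPD and 1.33 for the diet in Cort mice, beside 0.00 and -0.01 over all genes.

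For the NPD comparison of Cort with Veh and for the diet in Veh mice, edgeR called 0 of 7 in liver, against 12.6% and 0.169% of all genes. Of the 7, 2 and 0 had an unadjusted p under 0.05, where 3308 and 1165 of all genes did. The interaction called 0 of 7, against 0.113% of all genes. For it 4 of the 7 had an unadjusted p under 0.05, as had 1497 of the 12391 genes. DESeq2 called 3 of the 7, and 130 of all genes. Nothing is read from these counts of the 7 either. Leaving out single libraries changed the number called for the diet in Cort mice to between 3 and 7 and for Cort on the HPD to between 3 and 5. The count of 7 arose without Cort NPD replicate 2, the library with the highest haemoglobin of its group, and the call of Alas2 was lost without Cort NPD replicates 1 or 3, or Cort HPD replicates 1, 2 or 4, and for Cort on the HPD without Veh HPD replicate 1. With all 16 liver libraries Slc4a1 failed the filter on low counts, and 3 of the other 6 genes were called in each comparison, all higher.

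CPM that do not overlap between groups were counted as well. In eWAT all 7 genes lay wholly above the comparison group, both for the diet in Cort mice, where 3.81% of all genes did, and for Cort on the HPD, where 5.09% did. In liver 3 genes, Hbb-bs, Hbb-bt and Bpgm, lay wholly above in each comparison, where 3.27% and 4.33% of all genes did. Alas2 lay wholly below in both, where 12% and 19.2% of all genes did. None of the 7 lay wholly below in eWAT, where 2.55% and 5.99% of all genes did. In the NPD comparison of Cort with Veh, all 7 genes overlapped in both tissues, where 5.11% of all eWAT genes lay wholly above and 9.62% wholly below, and 8.35% and 9.57% of liver genes did. In the diet comparison in Veh mice they overlapped too, against 2.13% and 2.22% of eWAT genes and 5.48% and 3.09% of liver genes.

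Ratios between the genes of a library are free of its depth. Across the 31 libraries used, Hba-a1 made up 58.5% to 63.7% of the alpha counts and Hbb-bs 82.0% to 87.2% of the beta counts. The ratio of beta to alpha counts ran from 2.62 to 3.51 in eWAT and from 2.20 to 5.48 in liver, where the highest value came from Cort HPD replicate 1. Alas2 counts per 1000 haemoglobin counts were 3.02 to 4.90 in all 16 eWAT libraries, so that Alas2 and haemoglobin moved in near proportion there. In liver they were 30.1 to 54.4 in Veh NPD, 23.4 to 27.8 in Veh HPD, 15.2 to 42.1 in Cort NPD and 4.67 to 6.51 in Cort HPD. The library left out had 6.35, within the range of Cort HPD. The Cort HPD livers were thus near the eWAT ratio, and all other liver libraries used were above it.

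**Figure D4:**
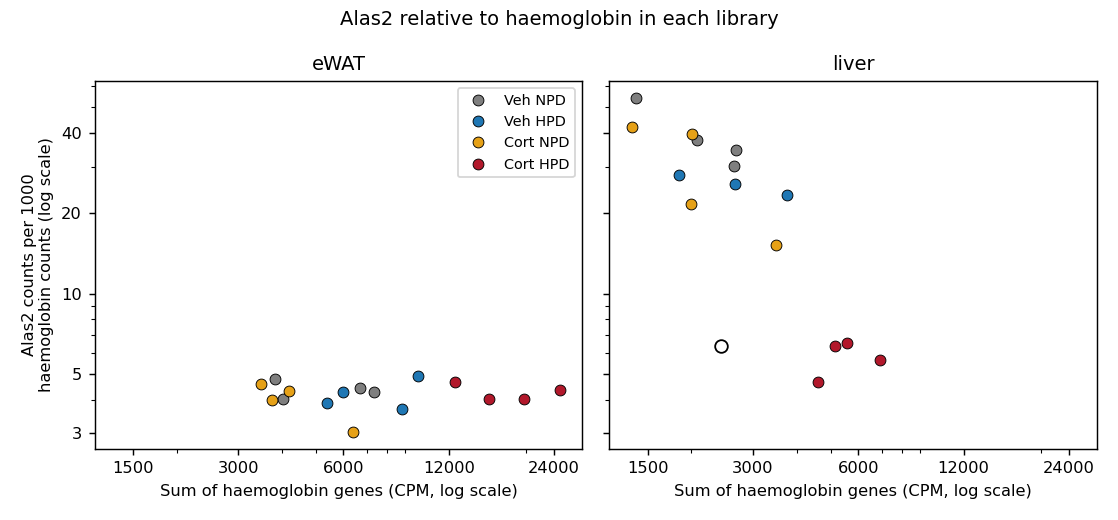
Alas2 counts per 1000 haemoglobin counts (vertical axis, log scale) against the sum of the 4 haemoglobin genes in CPM (horizontal axis, log scale), 1 point per library, in eWAT (left) and liver (right). The eWAT points form a flat band between 3.02 and 4.90, whereas the liver points run from 54.4 down to 4.67, with the 4 Cort HPD libraries and the library left out (open circle) lowest.

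Bpgm per 1000 haemoglobin counts ran from 1.97 to 4.30 in eWAT and from 2.95 to 9.59 in liver. Slc4a1 per 1000 haemoglobin counts was 0.200 to 0.269 in the Cort HPD libraries of eWAT and 0 to 0.127 in the other 12. Slc4a1 had at most 12 counts outside Cort HPD and passed the filter only through that group, so nothing is read from this difference. The 4 haemoglobin genes had their lowest value in the same library in 7 of the 8 groups and their highest in the same library in 5. The exception at the low end was liver Cort HPD, where replicate 1 was lowest for Hba-a1, Hba-a2 and Hbb-bt but not for Hbb-bs. Transcripts of the embryonic chains were at the floor. Hbb-y, Hbb-bh2 and Hba-x had 0 counts in 31 libraries, and Hbb-bh1 had 1, where 3 counts in the smallest library would be 0.336 CPM.

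Other red cell genes were examined in 5 lists, covering the membrane and its skeleton, the late red cell cytosol, the other globins, haem synthesis and nucleated precursors. Of 61 genes, 39 were tested in eWAT and 36 in liver. For the diet in Cort mice in eWAT, 3 of 39 rose and none fell (background 0.500% of all genes in either direction), and the list median was 0.16. Among those that rose were Slc25a37, mitoferrin, the mitochondrial iron importer of red cell precursors, and Tent5c, a poly(A) polymerase. For Cort on the HPD in eWAT, 3 of 39 rose and none fell (background 6.13%), and the list median was 0.25. Among these were Slc25a37 and Sptb, the beta-spectrin of the red cell skeleton. Most red cell list genes were not called in either comparison. For the diet in Cort mice, 10 of the 39 had an unadjusted edgeR p under 0.05, as had 1492 of the 15187 genes. For Cort on the HPD, 9 of the 39 did, as did 2889 of all genes.

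Slc25a37 was at 36.5, 60.0, 68.0 and 68.7 CPM in Cort HPD eWAT and at 17.6 to 26.2 CPM in the other 12 libraries, with no overlap. Its log2 fold change was 1.41 ± 0.18 for the diet in Cort mice (edgeR quasi-likelihood test, Benjamini-Hochberg adjusted p = 1.4e-04) and 1.32 ± 0.18 for Cort on the HPD (edgeR, adjusted p = 2.0e-05). Both calls held in each of the alternatives run. Tent5c rose by 1.43 ± 0.29 for the diet in Cort mice (edgeR, adjusted p = 0.015), lost with limma voom and without Cort NPD replicate 4 or Cort HPD replicate 4, where the edgeR adjusted p reached 0.070.

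**Figure D5:**
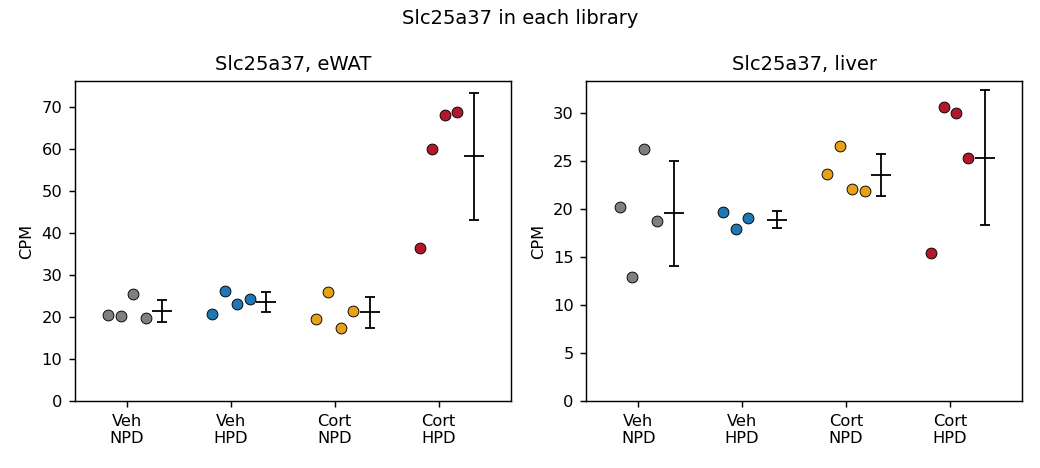
Level of Slc25a37 in CPM (vertical axes from 0, each with its own range) by group in eWAT (left) and liver (right), where points are libraries and the line and bar are the mean ± SD. In eWAT the Cort HPD libraries stand apart, at 36.5 to 68.7 CPM, and in liver they do not.

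Sptb did not follow the haemoglobin pattern. It rose with Cort on either diet in eWAT, by 1.62 ± 0.42 on the NPD (edgeR, adjusted p = 0.014) and by 1.56 ± 0.42 on the HPD (edgeR, adjusted p = 0.022). Its mean was 2.02 CPM in Veh NPD, 2.27 in Veh HPD, 5.86 in Cort NPD and 6.66 CPM in Cort HPD. The first call was lost without Veh NPD replicates 1 or 3 or Cort NPD replicate 3, and the second without Veh HPD replicates 1, 2 or 3 or Cort HPD replicate 4, with edgeR adjusted p-values of up to 0.074 and 0.083. For Cort on the NPD in eWAT, 4 of the 39 red cell list genes rose and 2 fell (background 7.95%), with a list median of -0.06. Besides Sptb, the haem synthesis gene Alas1, the form of the first enzyme used outside red cells, rose by 1.07 ± 0.21 (edgeR, adjusted p = 0.0028). Tfrc, the transferrin receptor, rose by 1.44 ± 0.30 (edgeR, adjusted p = 0.0033). Those that fell were Epor, the erythropoietin receptor, and Cygb, a globin of fibroblast-like cells, and the call of Epor was lost without Veh NPD replicates 1 or 3 or Cort NPD replicates 2, 3 or 4. In Veh mice the HPD called 0 of the 39 by edgeR (background 0.0593%), with 4 at an unadjusted p under 0.05 and 1 called by DESeq2. The interaction called 0 of the 39 by edgeR (background 0.0132%), with 11 at an unadjusted p under 0.05 and 2 called by DESeq2.

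In liver the red cell lists were called in both directions. For the diet in Cort mice, 4 of 36 rose and 2 fell (background 5.88%), with a list median of -0.05. Tfrc rose by 1.76 ± 0.27 (edgeR, adjusted p = 8.4e-04) and this call held when any single library was left out. E2f2, a cell cycle factor, rose by 1.36 ± 0.34 (edgeR, adjusted p = 0.022), a call lost with 5 of 15 libraries left out in turn, namely Cort NPD replicates 1, 2 or 3 and Cort HPD replicates 2 or 4. Abcb6, a porphyrin transporter, and Car1 fell, with calls lost in 8 and 11 of the 15 fits that left out 1 library. Tfrc was the 1 list gene that rose with the HPD in Veh mice too (background 0.169%), by 2.28 ± 0.29 (edgeR, adjusted p = 0.0015), with group means of 10.5 CPM in Veh NPD, 52.8 in Veh HPD, 15.2 in Cort NPD and 45.1 CPM in Cort HPD. Its level was thus higher on the HPD in Veh and in Cort mice alike.

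For Cort on the HPD in liver, 4 of 36 rose and 3 fell (background 9.89%), with a list median of 0.05. Car1, a carbonic anhydrase of red cells that other tissues make too, fell by 2.93 ± 0.40 on the log2 scale (edgeR, adjusted p = 6.5e-05). Its mean was 5.92 CPM in Veh NPD, 5.52 in Veh HPD, 1.78 in Cort NPD and 0.589 CPM in Cort HPD, and it fell with Cort on the NPD as well, by 1.71 ± 0.35 (edgeR, adjusted p = 0.0020). Tspan33 and Alad, a haem synthesis enzyme, fell, and Icam4, a red cell adhesion molecule, Slc25a37 and Tmem14c were among those that rose. Icam4 rose by 2.49 ± 0.42 (edgeR, adjusted p = 5.2e-04), from a mean of 0.506 CPM to 2.46 CPM. The rise of Slc25a37 was lost in 12 of the 15 leave-one-out fits. The calls of Tspan33, Alad and Tmem14c were lost in 5, 4 and 6 of these fits. For Cort on the NPD, 2 of 36 rose, Gypc and Icam4, and 3 fell, Tspan33, Car1 and Alad (background 12.6%). The list was thus called at about the rate of all genes. Gypc, Icam4 and Alad lost their calls in 7, 5 and 7 of the 15 fits. The interaction called 0 of the 36 by edgeR (background 0.113%), with 8 at an unadjusted p under 0.05 and 1 called by DESeq2.

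Genes whose log2 CPM most resembled the mean of the 4 haemoglobin genes were ranked by Pearson's r over the libraries of a tissue, which share their groups and depth. Over the 16 eWAT libraries the first 6 included Slc25a37 (r = 0.92), Epb41 (0.87), Hdac4 (0.86), 1700086O06Rik (0.83) and Morn5 (0.82). Over the 15 liver libraries they included Ifitm3 (0.91), Mrpl15 (0.91), Ttr (0.90), Abhd4 (0.89) and Cox5b (0.88). Among the 7 genes, r for Alas2 was 0.98 in eWAT and -0.53 in liver. After the group means had been removed, the closest genes in eWAT were Hdac4 (0.88) and Ttr (0.84), and in liver Cyb5r3 (0.91) and Nectin1 (0.90). Alas2 then had r = 0.91 in eWAT and 0.48 in liver. The genes named are the top of a ranking of 15187 genes in eWAT and 12391 in liver, without a test. Ttr and Morn5 had means of only 0.510 and 0.535 CPM in eWAT.

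Marker sums of platelets, neutrophils, T cells and endothelium were set beside the eWAT pattern. The summed platelet markers were 121 to 186 CPM in Cort HPD, 125 to 187 in Cort NPD, 175 to 211 in Veh HPD and 143 to 211 CPM in Veh NPD, with 2, 1, 2 and 3 of the 8 markers at 0. This sum rested almost wholly on Pf4, with a mean of 167 CPM over the eWAT libraries, so it says little about the other platelet markers. The 9 neutrophil markers summed to 7.36 to 13.7 CPM in Cort HPD and 7.97 to 20.9 CPM in the other groups, with 3 of the 9 at 0 in Cort HPD. The 6 T cell markers summed to 2.45 to 6.35 CPM in Cort HPD and 3.0 to 6.84 CPM in Cort NPD, and the 6 endothelial markers to 336 to 470 and 379 to 409 CPM. The ranges of Cort HPD and Cort NPD thus overlapped for each of these lists. The neutrophil and T cell sums were low, and whether they could show a difference in blood content was not tested. The summed adipocyte markers were lower with Cort, at 12084 to 14071 CPM in Cort HPD and 22312 to 33876 CPM in Veh HPD, and at 12208 to 14704 CPM in Cort NPD. The sum rested mostly on Cfd and Adipoq, with means of 2787 and 4507 CPM in Cort HPD and 13266 and 8094 CPM in Veh HPD. The markers did not all move one way, since for Cort on the HPD edgeR called 2 of the 5 lower and 1 higher (background 6.13%), and on the NPD 2 lower and 2 higher (background 7.95%). Their part in the difference between Cort and Veh on the HPD was not tested.

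In liver several lists moved with the groups. The 5 hepatocyte markers summed to 130184 to 181417 CPM in Cort HPD, 94661 to 118615 CPM in Cort NPD and 71569 to 78894 CPM in Veh HPD. The 6 endothelial markers summed to 28.2 to 50.0 CPM in Cort HPD, 59.1 to 111 CPM in Cort NPD and 73.6 to 98.4 CPM in Veh HPD. The 6 macrophage markers summed to 110 to 145 CPM in Cort HPD, 95 to 146 CPM in Cort NPD and 182 to 251 CPM in Veh HPD. The hepatocyte sum was carried by albumin (Alb), with a mean of 116666 CPM in Cort HPD, 80256 in Cort NPD and 41336 CPM in Veh HPD. Against Veh HPD, edgeR called 2 of the 5 hepatocyte markers higher and 1 lower in Cort HPD, with a median log2 fold change of -0.20, and against Cort NPD it called 2 higher and none lower. Of the 6 endothelial markers, 3 were called lower and none higher in each of these comparisons. Over all genes 9.89% and 5.88% were called in either direction in the 2 comparisons. The part of these lists in the values of Alas2 and haemoglobin was not tested. Platelet markers, at 4.16 to 9.41 CPM, overlapped between all liver groups.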

How the data were processed

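Gene counts per library, not normalized, were used as the authors deposited them in a table of raw counts. The submitters' processing notes name the mouse build GRCm38 (mm10), and the aligner, the counter and their settings are not given in the sources used here. Libraries were made with the QuantSeq 3′ kit. The groups came from the sample labels, with 4 libraries each, and 1 liver Veh HPD library (replicate 4) was left out of all comparisons. Identifiers were matched to symbols for 47224 genes and stayed without one for 419. Genes with low counts were removed by filterByExpr (minimum count 10, minimum total 15), libraries were scaled by TMM, and the 4 groups of a tissue were fitted together with edgeR 4.0.16 in R 4.3.3, by its quasi-likelihood test with Benjamini-Hochberg adjustment and a threshold of 0.05. The 7 genes and all gene lists were chosen with earlier results of these data known. List genes were named where called, up to 3 per list and comparison by p-value, together with all other called genes of the red cell lists, which were named after their values were seen. Some list genes are counted but not reported here by name. Genes most like haemoglobin were the 6 with the highest r on log2 CPM (prior count 2). Alternatives were other scalings, DESeq2 1.42.0, limma 3.58.1 (voom), no filter, only the 2 groups compared, a replicate block, single libraries left out, and all 16 liver libraries. The procedures were also run on simulated counts, with 1 common spread, smaller than that fitted in eWAT, and with changes only in genes above a minimum level. That simulation does not show how they perform on counts as low as those of Slc4a1. Replicate numbers were not used to pair libraries in the main fit. Over 24 pairs of equal number in eWAT, r of the deviations from group means was -0.115 to 0.253. Over 21 such pairs in liver it was -0.131 to 0.161.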

Additional observations from a re-analysis of the deposited data

Results flagged for a closer look

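The share of Hbb-bs in the beta-globin counts was 86.7% in liver Cort HPD replicate 1, apart from the other 3 libraries of its group, with a gap of 0.848 of the group's range, above the 95% critical value of Dixon's test for 4 samples. Bpgm counts per 1000 haemoglobin counts were 2.60 in eWAT Veh NPD replicate 3, below the rest of its group by 0.851 of the range. These were 2 of 98 groups of values examined, and chance alone marks about 1 in 20.

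Alas2 had opposite directions in the tissues, with every library of one group beyond every library of the other. For Cort against Veh on the HPD its log2 fold change was 1.31 in eWAT and -0.86 in liver, and for the HPD against the NPD in Cort mice it was 2.13 in eWAT and -0.70 in liver. The difference between the tissues was not tested. The liver Veh HPD library left out of the comparisons had 16.9 CPM of Bpgm, above the 10.3 to 16 CPM of the other 7 liver Veh libraries.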

How the results depend on the processing

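No called value turned its direction among the results and alternatives run. Uncalled values near 0 did in the comparisons without Cort HPD: with 1 library left out, the members' median for Cort on the NPD in liver ran from -0.42 to 0.16 and that for the HPD in Veh mice from -0.02 to 0.36, and in eWAT Hbb-bt and Bpgm for Cort on the NPD ran from -0.30 to 0.11 and from -0.13 to 0.11. The members' median log2 fold change kept its value within the spread of libraries in all 83 alternative fits and in 154 of 155 fits that left out 1 library, the exception being the HPD against the NPD in Cort mice in liver, where it ran from 1.11 to 1.86. Counts of genes were within 1.5 times the reported count in 125 of 166 alternatives and in 233 of 310 fits without 1 library, and the cause of the other changes was not tested.

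In eWAT, genes called for the HPD against the NPD in Veh mice (9) were 16 with library totals alone, 126 with DESeq2, 24 with voom, 30 without a filter and 4 with only the 2 groups, and the red cell list gave 1 in place of 0 with DESeq2. For the HPD against the NPD in Cort mice (76) they were 195 with DESeq2 and 165 with only the 2 groups, and the red cell list (3) gave 5 with library totals, 6 with DESeq2, 5 without a filter and 5 with only the 2 groups. For the interaction (2) they were 0 with library totals, 14 with DESeq2, 0 with voom and 4 without a filter, and the list (0) gave 2 with DESeq2 and 1 without a filter. In liver, the interaction (14) gave 9 genes with RLE factors, 23 with library totals, 9 with library sizes without the 7 genes, 130 with DESeq2, 3 with voom, 72 without a filter and 1 with all 16 libraries, and the list gave 1 with DESeq2. With all 16 libraries, Cort against Veh on the NPD gave 997 genes (1565 reported), the HPD in Veh mice 7 (21), the HPD in Cort mice 371 (729), and the list gave 1 (5) and 3 (6) for the first and the last. The list for Cort on the NPD gave 8 with DESeq2. The HPD in Veh mice gave 113 genes with DESeq2 and 56 without a filter, and its list (1) gave 2 with DESeq2 and 0 with only the 2 groups. The list for Cort on the HPD (7) gave 4 with only the 2 groups.

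With single libraries left out, eWAT counts of genes and of the list ran from 597 to 1265 and 1 to 5 for Cort on the HPD, 5 to 71 and 0 to 1 for the diet in Veh mice, 26 to 124 and 2 to 5 for the diet in Cort mice, and 0 to 3 and 0 to 1 for the interaction. In liver the list ran from 2 to 7 for Cort on the NPD. Genes and list ran from 714 to 1222 and 2 to 8 for Cort on the HPD and from 356 to 757 and 3 to 7 for the diet in Cort mice. Genes ran from 5 to 40 for the diet in Veh mice and from 2 to 39 for the interaction.

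Groups shared replicate numbers. With the replicate number as a block, the eWAT interaction called 8 genes and 1 list gene, and the liver list called 3 for Cort on the NPD and 4 for Cort on the HPD, and no other count moved by over 1.5 times. Of the pairs of libraries with equal numbers, 1 of 24 in eWAT and 3 of 21 in liver had r over 0.1. Whether libraries of equal number shared a cohort or a preparation is not given, and a correlation over all genes cannot decide it. Slc4a1, with at most 12 counts outside Cort HPD, is limited by depth.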

Other observations

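Genes that handle haemoglobin and haem released from red cells were a further list of 11 genes. Hp, haptoglobin, which binds free haemoglobin in plasma, rose with Cort in both tissues. In eWAT its mean was 1105 CPM in Veh NPD, 1666 in Veh HPD, 6167 in Cort NPD and 7161 CPM in Cort HPD, a log2 rise of 2.55 ± 0.17 on the NPD (edgeR quasi-likelihood test, Benjamini-Hochberg adjusted p = 7.5e-11) and 2.11 ± 0.16 on the HPD (edgeR, adjusted p = 2.4e-09). In liver it was 1446, 1350, 3282 and 4476 CPM in the same order, a rise of 1.21 ± 0.16 on the NPD (edgeR, adjusted p = 2.6e-05) and 1.97 ± 0.19 on the HPD (edgeR, adjusted p = 3.3e-07). Each of these 4 calls held when any single library was left out.

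Hpx, haemopexin, which binds free haem, was higher in Cort HPD than in Cort NPD livers by 1.27 ± 0.19 (edgeR, adjusted p = 3.1e-04), with 4945 to 8017 CPM against 2505 to 3195 CPM and no overlap. Lrp1, the receptor that takes up the haem and haemopexin complex, fell in the same comparison by 0.88 ± 0.15 on the log2 scale (edgeR, adjusted p = 8.8e-04). Of the whole list, 3 of 10 tested genes rose with Cort on the NPD in eWAT and 2 of 10 on the HPD, and none fell. Over all eWAT genes 7.95% and 6.13% were called in either direction. In liver 2 of 11 rose and 1 fell with Cort on the NPD, 4 rose and 2 fell with Cort on the HPD, and 3 rose and 2 fell with the HPD in Cort mice. Over all liver genes 12.6%, 9.89% and 5.88% were called in these comparisons.

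In a list of glycolytic genes that red cells use, Pklr, the pyruvate kinase of red cells and hepatocytes, rose in liver with Cort on the NPD by 1.61 ± 0.22 (edgeR, adjusted p = 4.9e-05) and fell with the HPD in Cort mice by 1.59 ± 0.22 (edgeR, adjusted p = 2.9e-04). It was the 1 of 6 genes called in the latter comparison (background 5.88%). With Cort 2 of 6, Pklr and Gpi1, rose in liver on the NPD (background 12.6%) and on the HPD (background 9.89%). The call of Pklr on the HPD was lost in 6 of the 15 fits that left out 1 library. In a list of oxygen sensing genes, Epas1, which encodes an oxygen-regulated transcription factor, fell in liver with the HPD in Cort mice by 0.67 ± 0.15 (edgeR, adjusted p = 0.0084). It was the 1 gene of 7 called there (background 5.88%), and it was not called with all 16 liver libraries. Of the 6 tested in eWAT, 2 rose with Cort on the NPD (background 7.95%). Vhl, the factor that marks such transcription factors for breakdown, rose with Cort on the HPD (background 6.13%) by 1.09 ± 0.26 (edgeR, adjusted p = 0.014), a call lost without Veh HPD replicates 1 or 3.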
